A study of Mus musculus with 7 samples.

Results

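Depdc1b, Tmcc2, Snx22, Sowaha, Col6a6 and Mir451 are 6 genes among the steepest falls in fetal livers of Pcbp2 knockout mice. They were picked by name for large falls in knockout with groups that did not overlap. Their fall is therefore a property of the choice, and it is described below with its error but without a test. They are 6 of 38924 genes in the count files and 6 of the 16226 genes that had enough reads to be tested, since each passed the filter on low counts. The study sequenced messenger RNA of fetal livers taken from mice 12.5 days post coitum. Wild type was represented by 4 libraries, replicates 1 to 4, and Pcbp2 knockout by 3 libraries, replicates 3 to 5. The labels give the genotypes only as wild type and Pcbp2 knockout. Not given in the sources used here are strain, sex, litter and the design of the allele. The labels also do not say that each library came from a separate animal, so p-values reflect how far these libraries spread, which may be technical.

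The fetal liver is the main blood-forming organ at this age, and most of its cells are red cell precursors that fill with haemoglobin as they mature. Hba-a1, an adult alpha globin, and Alas2, the erythroid enzyme that starts haem synthesis, rise late in that course and serve here as references for maturation. Pcbp2 is a protein that binds C-rich RNA and acts on RNA stability, splicing and translation. Mir451 encodes miR-451a, a microRNA abundant in red cells that is cut by Ago2 rather than Dicer, and Tmcc2 belongs to a family of membrane proteins of the endoplasmic reticulum. Snx22 is a sorting nexin, a class of proteins that bind membrane lipids through a PX domain, and Sowaha is an ankyrin repeat protein. Depdc1b carries a DEP domain and has been tied to cell division, and Col6a6 is a chain of collagen VI, a fibrous protein of the extracellular matrix.

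Mir451 is the regulatory RNA of the set, and its sequence is shown with that of Mir144, which lies 100 bases away on the same strand. Mir451 (Mir451a in RefSeq) lies at chr11:78073170-78073241 on the plus strand of GRCm38, the build also called mm10. Mir144 lies at chr11:78073005-78073070. In the mature sequences from the RefSeq table for GRCm38.p6, capitals mark the seed, bases 2 to 8, which pairs with target messages.
mmu-miR-451a: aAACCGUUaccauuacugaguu
mmu-miR-144-3p: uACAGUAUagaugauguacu
mmu-miR-144-5p: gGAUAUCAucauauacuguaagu
These 3 seeds differ, and each is held by 1 of the 1738 mature mouse microRNAs in that table. In the 72-base hairpin, capitals mark the mature strand, at bases 17 to 38, which runs into the loop as in a hairpin that Ago2 cuts.
Mir451a hairpin: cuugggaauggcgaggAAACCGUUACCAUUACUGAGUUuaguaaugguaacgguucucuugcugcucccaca
The libraries were made from messenger RNA, so reads assigned to Mir451 come from longer RNA across the hairpin and do not measure the 22-base mature microRNA.

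Upstream sequence is shown for Tmcc2 and Snx22, because their windows hold words of the kind bound by GATA factors, the main regulators of red cell genes. The word AGATAA, its relative TGATAA, the variant AGATAG and its relative TGATAG were searched on both strands of RefSeq windows from 250 bases before to 50 bases after each start. Tmcc2 has 3 listed starts, Snx22 has 2 and Col6a6 has 1. Below are the 250 bases upstream of the start, 5′ to 3′ on the gene's strand, for the Tmcc2 start at chr1:132367949-132368198 and the Snx22 start at chr9:66069760-66070009, both on the minus strand, with matches in capitals.
Tmcc2 upstream: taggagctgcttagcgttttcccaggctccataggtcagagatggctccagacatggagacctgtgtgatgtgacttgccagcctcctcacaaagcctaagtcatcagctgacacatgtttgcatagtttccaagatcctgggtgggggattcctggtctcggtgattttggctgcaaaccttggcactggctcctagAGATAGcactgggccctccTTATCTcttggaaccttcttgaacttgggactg
Snx22 upstream: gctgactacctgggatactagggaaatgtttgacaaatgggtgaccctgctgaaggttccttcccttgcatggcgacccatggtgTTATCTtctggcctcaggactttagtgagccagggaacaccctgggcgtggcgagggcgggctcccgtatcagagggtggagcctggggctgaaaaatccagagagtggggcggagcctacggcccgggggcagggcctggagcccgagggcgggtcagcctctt
This Tmcc2 window held 1 AGATAG and, on the other strand, 1 AGATAA, and the Snx22 window held 1 AGATAA on the other strand. The other 2 Tmcc2 starts and the Col6a6 start held none of the 4 words. Hba-a1 held 1 TGATAA and Alas2 1 AGATAA. Any of the 4 words occurred in 29.8% of 32851 mouse promoter windows of the same length, so a match is common and is given as a description. No promoter is shown for Depdc1b, Sowaha or Mir451, which had no window in the set used and were not searched.

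Reads assigned to genes ranged from 31898339 to 44544889 per library, and no 2 libraries were identical. Levels are given in CPM, read counts relative to library size, scaled between libraries by the TMM method, which centres most genes on no change. At these depths a count of 0 allows up to 3 reads, or 0.0673 to 0.0940 CPM before that scaling, a floor that covers counting error only. Pcbp2 itself was at 165, 329, 347 and 338 CPM in wild-type replicates 1 to 4 and at 2.24, 1.39 and 2.22 CPM in knockout replicates 3 to 5. The knockout labels thus match the targeted gene, but wild-type replicate 1 had the lowest Pcbp2 of its group by a wide gap. Without that library the log2 fold changes of the 6 genes, knockout over wild type, lay between -2.68 for Col6a6 and -2.20 for Sowaha. Pcbp1, the closely related intronless gene, was at 299 ± 23.3 CPM (SD, n = 4) in wild type and 277 ± 15.2 CPM (SD, n = 3) in knockout, with overlapping groups (log2 fold change -0.11 ± 0.0996 SE, edgeR adjusted p = 0.561).

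All 6 genes were lower in each of the 3 knockout libraries than in any wild-type library, as the choice requires. Over all tested genes, knockout lay entirely below wild type in 10.8%, and edgeR's quasi-likelihood test called 3.43% lower and 1.59% higher at an adjusted p under 0.05. Nothing is read from these shares for the 6 genes, which were chosen on this contrast. Lists below also carry counts at an unadjusted p under 0.05. The share of all tested genes at that threshold was not counted, so nothing is read from those counts. In bulk tissue, fewer cells of a type and less RNA per cell cannot be told apart.

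**Figure D1:**
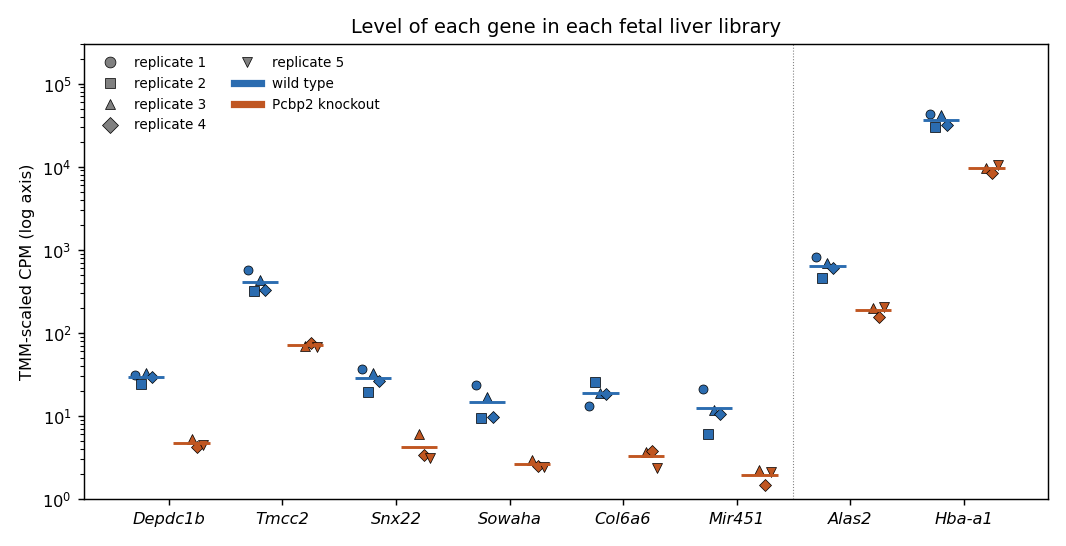
Level of the 6 genes and of the references Hba-a1 and Alas2 in TMM-scaled CPM on a log axis, with 1 point per library, symbols by replicate number and horizontal bars at group means. In each of the 8 genes the 3 knockout points lie below the 4 wild-type points, and the wild-type points of Mir451 (6.13 to 20.99 CPM) spread farther than those of Depdc1b (24.5 to 32.8 CPM).

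Mir451 stood at 20.99, 6.13, 11.6 and 10.4 CPM in wild-type replicates 1 to 4 and at 2.24, 1.48 and 2.08 CPM in knockout replicates 3 to 5. Wild-type replicate 1 was the highest and replicate 2 the lowest of its group, and the lowest wild-type value was still 2.74-fold the highest knockout value. These levels rest on 251 to 620 reads in wild type and on 67 to 74 in knockout, the fewest of the 6 genes. Means were 12.3 ± 6.27 CPM (SD, n = 4) and 1.93 ± 0.401 CPM (SD, n = 3), a log2 fold change of -2.67 ± 0.385 (SE) or a 6.36-fold fall. Mir451 had the widest relative spread in wild type of the 6, with a coefficient of variation (SD over mean) of 51.0%. In the authors' deposited table its log2 fold change was -2.48 with a standard error of 0.312.

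Mir144, the neighbour that is transcribed with Mir451 in red cells, had 87, 58, 72 and 201 reads in wild-type replicates 1 to 4. It had 38, 16 and 21 reads in knockout replicates 3 to 5. In CPM these were 2.95, 1.42, 1.97 and 4.62 against 1.15, 0.353 and 0.599, so wild-type replicate 4 was high, every knockout library lay below every wild-type library, and the gap at the nearest pair was 1.23-fold. Mir144 fell by 1.99 ± 0.493 (SE) on the log2 scale (edgeR adjusted p = 0.0475). The call is at the threshold. It was lost with total-count scaling (edgeR adjusted p = 0.0510) and with limma-voom (adjusted p = 0.0604). It was also lost in edgeR when the library left out was wild-type replicate 1 (adjusted p = 0.0899), replicate 3 (0.0731), replicate 4 (0.108), knockout replicate 4 (0.130) or knockout replicate 5 (0.177). Mir144 reads per 1000 Mir451 reads ranged from 140 to 445 in wild type and from 239 to 514 in knockout, so the proportion between the 2 hairpins overlapped between the groups. Eral1, whose nearest end is 135 bases from Mir451 on the opposite strand, had a log2 fold change of 0.05 ± 0.107 (SE, edgeR adjusted p = 0.831).

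Of 10 genes that make or carry microRNAs, edgeR called 0 in either direction, with 1 higher at an unadjusted p under 0.05 and 0 called by DESeq2 or limma-voom. Their median log2 fold change was 0.11, beside 0.01 for all tested genes. Ago2, which cuts the Mir451 hairpin, had a log2 fold change of -0.10. Drosha, which frees microRNA hairpins from their primary transcripts, had 0.22 (edgeR adjusted p = 0.167).

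The 5 genes reported elsewhere as miR-451 targets were all tested, and edgeR called 0 of them, with 1 higher at an unadjusted p under 0.05 and 0 called by DESeq2 or limma-voom. Ywhaz, the 14-3-3 zeta adaptor protein, was at 490 ± 31.0 CPM (SD, n = 4) in wild type and 599 ± 52.4 CPM (SD, n = 3) in knockout. Its log2 fold change of 0.29 ± 0.105 (SE) had an edgeR adjusted p of 0.141, and among the 15 alternatives it passed the threshold only with total-count scaling (edgeR adjusted p = 0.0385). The log2 fold change was 0.28 for Mif, 0.13 for Rab14, 0.10 for Tsc1 and 0.05 for Cab39, with a median of 0.13 over the 5 genes. A 7-base word complementary to the miR-451a seed, AACGGTT, was searched for in the transcript with the longest coding sequence of each gene. In these transcripts it occurs in the 3′ untranslated regions of Ywhaz, from base 565, and of Cab39, from base 111. It was not found in those of Rab14, Tsc1 or Mif, and other transcripts were not searched. The word is in capitals in these sites, which show where the seed would pair.
Ywhaz site: ggtaagggcagaAACGGTTcacat
Cab39 site: tgctgttaagtgAACGGTTtttca
Of 14319 tested genes with an annotated 3′ untranslated region, 262 hold the word. Their median log2 fold change was 0.05, with 8 genes (3.05%) called higher and 5 (1.91%) called lower, beside 0.01, 1.56% and 3.60% for all 14319 genes. Of 48 genes in which an A follows the word, 1 was called higher and 1 lower (2.08% each). Mature miR-451a itself was not measured.

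Tmcc2 (chr1:132356315-132391281, minus strand) was the most abundant of the 6. Its level was 565, 322, 435 and 332 CPM in wild-type replicates 1 to 4 and 69.3, 75.6 and 67.9 CPM in knockout replicates 3 to 5. Wild-type replicate 1 was again the highest and replicate 2 the lowest, while the knockout libraries lay within 1.11-fold of each other. Mean levels were 414 ± 113 CPM (SD, n = 4) and 70.9 ± 4.13 CPM (SD, n = 3), a log2 fold change of -2.54 ± 0.199 (SE) or 5.83-fold. Tmcc2 ranked 313 of the 16226 tested genes by wild-type CPM, and the lowest library still held 2290 reads, so counting error adds little to its spread. The authors' deposited table gives a log2 fold change of -2.49 with a standard error of 0.183.

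The paralogs Tmcc1 and Tmcc3 had log2 fold changes of 0.16 (edgeR adjusted p = 0.423) and 0.16 (edgeR adjusted p = 0.383). edgeR called 0 of these 2, with 0 at an unadjusted p under 0.05 and 0 called by DESeq2 or limma-voom. The genes that flank Tmcc2, Nuak2 and Dstyk, both protein kinases, had log2 fold changes of -0.08 and -0.27 (edgeR adjusted p = 0.879 and 0.168).

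Snx22 (chr9:66065176-66069719, minus strand) stood at 36.8, 19.4, 33.2 and 26.4 CPM in wild-type replicates 1 to 4 and at 5.99, 3.35 and 3.14 CPM in knockout replicates 3 to 5. Replicate 1 was the highest wild-type library and replicate 2 the lowest, and knockout replicate 3 was 1.91-fold above replicate 5. Snx22 had the largest fall of the 6, with mean levels of 28.9 ± 7.68 CPM (SD, n = 4) and 4.16 ± 1.59 CPM (SD, n = 3). This was a log2 fold change of -2.80 ± 0.284 (SE) or 6.98-fold. Without knockout replicate 3 the log2 fold change was -3.15. The authors' deposited table gives -2.68 with a standard error of 0.247.

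Snx22 overlaps Ppib, a cyclophilin gene on the opposite strand, over 1448 bases at their ends. The library kit keeps strand, but the labels do not say whether the counting used it, so reads in the overlap may not be separable. Ppib stood at 329 ± 26.6 CPM (SD, n = 4) in wild type and 283 ± 28.9 CPM (SD, n = 3) in knockout (log2 fold change -0.22 ± 0.109 SE, edgeR adjusted p = 0.279). The next genes beyond, Csnk1g1 and Snx1, had log2 fold changes of 0.15 and -0.02.

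Of the other 29 sorting nexins, all were tested and edgeR called 0, with 3 lower and 0 higher at an unadjusted p under 0.05. DESeq2 called 2 lower and limma-voom 0, and the median log2 fold change was -0.02. Snx15 had a log2 fold change of -0.49 (edgeR adjusted p = 0.0569) and Snx20 one of -0.72 (edgeR adjusted p = 0.0730), and DESeq2 called both (adjusted p = 0.00960 and 0.0240). Snx12 had a log2 fold change of -0.24 (edgeR adjusted p = 0.152).

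Sowaha (chr11:53476573-53480274, minus strand) stood at 23.3, 9.54, 16.8 and 9.77 CPM in wild-type replicates 1 to 4 and at 2.90, 2.49 and 2.45 CPM in knockout replicates 3 to 5. Wild-type replicates 1 and 3 were high and replicates 2 and 4 close to each other, whereas the knockout libraries differed by at most 1.18-fold. Means were 14.8 ± 6.56 CPM (SD, n = 4) and 2.62 ± 0.249 CPM (SD, n = 3), a log2 fold change of -2.50 ± 0.323 (SE) or 5.66-fold. Its wild-type coefficient of variation, 44.2%, was the second highest of the 6. In the authors' deposited table the log2 fold change was -2.37 with a standard error of 0.277.

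Of the Sowaha paralogs, Sowahc did not pass the filter on low counts, and edgeR called 0 of the other 2, with 0 at an unadjusted p under 0.05 and 0 called by DESeq2 or limma-voom. Sowahb had a log2 fold change of 0.82 ± 0.372 (SE, edgeR adjusted p = 0.236) and Sowahd one of -0.16. The flanking genes Shroom1 and Sept8, a septin, had log2 fold changes of 0.11 and -0.16 (edgeR adjusted p = 0.841 and 0.464).

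Depdc1b (chr13:108316332-108407782, plus strand) stood at 30.9, 24.5, 32.8 and 29.0 CPM in wild-type replicates 1 to 4 and at 5.20, 4.26 and 4.51 CPM in knockout replicates 3 to 5. It was the most even of the 6 in wild type, with a coefficient of variation of 12.2%, and had the widest gap between groups, the lowest wild-type value being 4.71-fold the highest knockout value. The group means were 29.3 ± 3.58 CPM (SD, n = 4) and 4.66 ± 0.489 CPM (SD, n = 3), a log2 fold change of -2.66 ± 0.146 (SE) or 6.30-fold. The authors' deposited table gives -2.62 with a standard error of 0.154.

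Relatives and partners in cell division did not show falls of that size. Depdc1a, its closest paralog, had a log2 fold change of -0.36 ± 0.211 (SE, edgeR adjusted p = 0.350), Depdc7 one of -0.07 and Depdc5 one of 0.02. Of 4 relatives listed these 3 were tested, and edgeR called 0, with 0 at an unadjusted p under 0.05 and 0 called by DESeq2 or limma-voom. Of 22 genes of mitosis and cytokinesis, edgeR called 0, with 3 lower at an unadjusted p under 0.05 and 0 called by DESeq2 or limma-voom, and their median log2 fold change was -0.14. Nusap1, which binds spindle microtubules, had -0.46 (edgeR adjusted p = 0.142), the mitotic kinase Cdk1 had -0.25 and the spindle kinase Aurka -0.28.

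The predicted gene Gm2822 begins 59 bases from Depdc1b on the opposite strand, and was scarce, averaging 0.456 CPM over the wild-type libraries and 0.130 CPM over the knockout ones. Its log2 fold change of -1.77 ± 0.590 (SE) had an edgeR adjusted p of 0.116. The call was gained without wild-type replicate 2 (edgeR adjusted p = 0.0198). Pde4d, a phosphodiesterase gene on the other side of Depdc1b, had a log2 fold change of 0.13.

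Col6a6 (chr9:105687809-105828160, minus strand) stood at 13.0, 25.4, 19.0 and 18.2 CPM in wild-type replicates 1 to 4 and at 3.63, 3.77 and 2.34 CPM in knockout replicates 3 to 5. Here wild-type replicate 2 was the highest and replicate 1 the lowest, the reverse of Mir451, Tmcc2, Snx22 and Sowaha. On average it stood at 18.9 ± 5.07 CPM (SD, n = 4) and 3.25 ± 0.790 CPM (SD, n = 3), a log2 fold change of -2.54 ± 0.250 (SE) or 5.81-fold. The authors' deposited table gives -2.45 with a standard error of 0.229.

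Of the other 5 collagen VI chain genes, 4 were tested and 1, Col6a3, was called lower, beside 3.43% of all tested genes. The median log2 fold change of the 4 was -0.54. Col6a3, at 160 ± 38.1 CPM (SD, n = 4) and 87.2 ± 10.9 CPM (SD, n = 3), fell by 0.87 ± 0.179 (SE) on the log2 scale (edgeR adjusted p = 0.0243). The call was lost in edgeR when the library left out was wild-type replicate 3 (adjusted p = 0.0583), knockout replicate 4 (0.0509) or knockout replicate 5 (0.125). Col6a5, 27918 bases from Col6a6 and its nearest tested gene on the higher coordinate side, had a log2 fold change of -1.62 ± 0.632 (SE, edgeR adjusted p = 0.169) at 0.458 and 0.147 CPM. Col6a1 and Col6a2, the chains that assemble with Col6a3, had log2 fold changes of -0.21 and -0.09 (edgeR adjusted p = 0.587 and 0.832). Pik3r4, 152 bases away on the opposite strand, had 0.18.

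**Figure D2:**
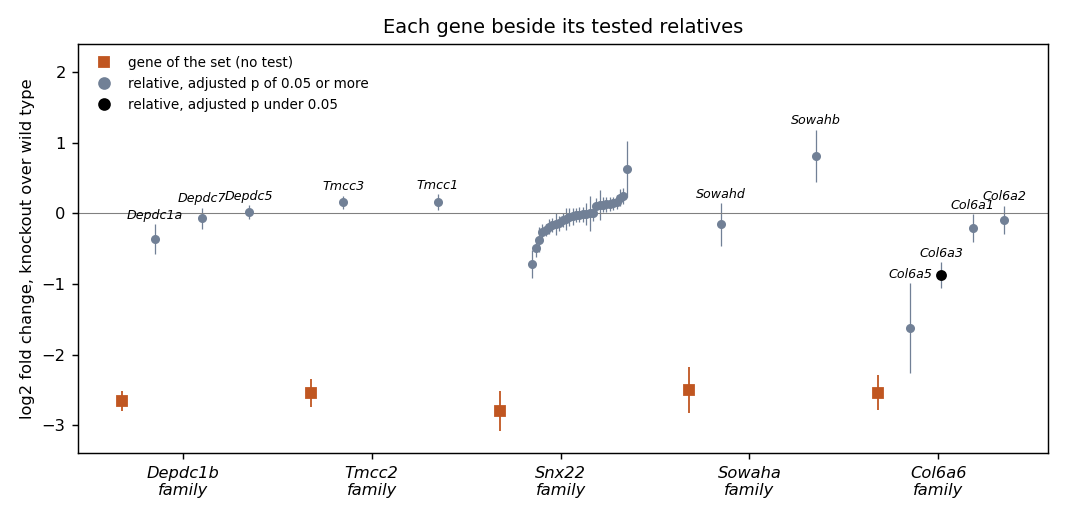
Log2 fold change, knockout over wild type, of 5 of the 6 genes (squares, no test) and of their tested relatives (circles, black where edgeR's adjusted p was under 0.05), with bars for the standard error of the fit. Col6a3 at -0.87 is the black circle, and the 5 squares lie between -2.80 and -2.50.

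Over the 13 genes nearest to the 6 on either side, edgeR called 1 lower, Mir144, and 0 higher. The shares over all tested genes were 3.43% and 1.59%. At an unadjusted p under 0.05, 4 of the 13 were lower. DESeq2 called 1 and limma-voom 0, and the median log2 fold change was -0.08.

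**Figure D3:**
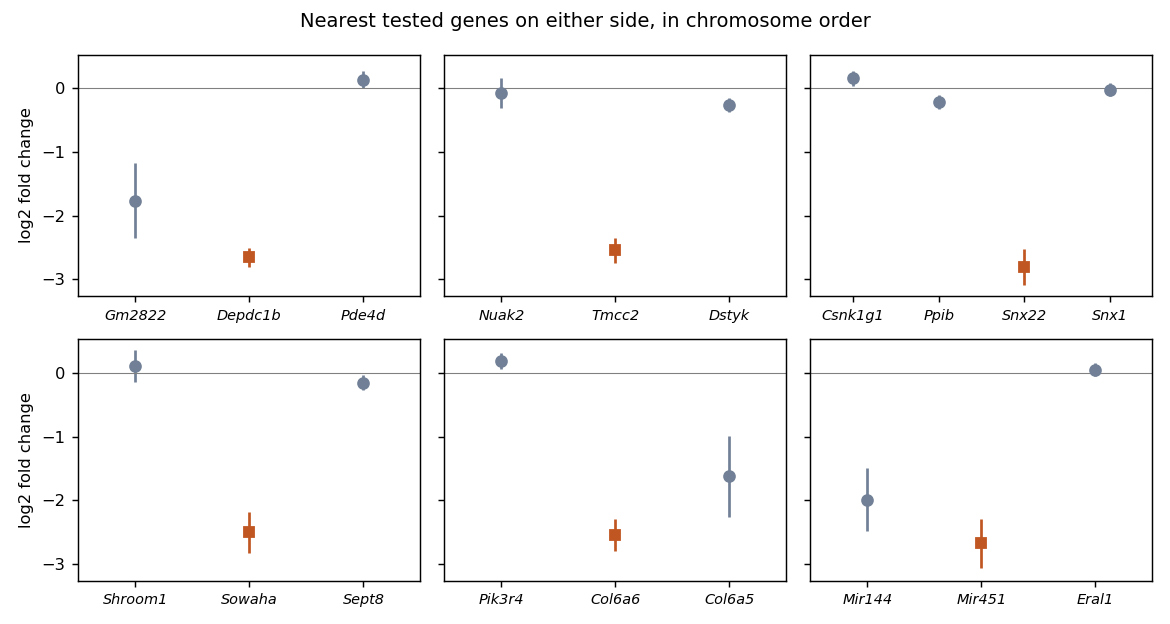
Log2 fold change, knockout over wild type, of each of the 6 genes (squares) between its nearest tested genes (circles), in chromosome order, with the standard error of the fit as bars. Eral1 beside Mir451 sits at 0.05, Pik3r4 beside Col6a6 at 0.18 and Pde4d beside Depdc1b at 0.13.

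Compared per kilobase of exon, wild-type levels were 72.7 CPM for Tmcc2, 10.0 for Snx22, 8.75 for Depdc1b, 4.01 for Sowaha and 2.06 for Col6a6. Tmcc2 stood above the rest by more than the spread, while Snx22 and Depdc1b differed by less than the spread between wild-type libraries. Mir451 is left out of that order, because its annotated 72 bases are far shorter than a sequenced fragment. In the order of log2 fold changes among genes of at least 5 CPM, Snx22, Mir451 and Depdc1b held places 6 to 8 and Tmcc2, Col6a6 and Sowaha places 11 to 13. Places 9 and 10, between these, went to mmu-mir-6236 and Irgm2, and places 3 and 4 to the adult beta globins Hbb-bt and Hbb-bs. Just below Sowaha, at -2.50, came Igtp, an interferon-induced GTPase, at -2.49. All 6 fell by 5.66-fold to 6.98-fold, and the differences among their log2 fold changes are within the standard errors.

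Hba-a1 and Alas2 also fell, but by less. Hba-a1 stood at 43589, 29716, 41573 and 31581 CPM in wild-type replicates 1 to 4 and at 9650, 8304 and 10592 CPM in knockout replicates 3 to 5, a log2 fold change of -1.94 ± 0.178 (SE). Alas2 stood at 810, 455, 697 and 596 CPM in wild type and 198, 155 and 206 CPM in knockout, a log2 fold change of -1.78 ± 0.195 (SE). Hba-a1 has a nearly identical copy, Hba-a2, whose mean level was 31.5 CPM across wild-type libraries and 7.30 across knockout libraries. Counted reads of the pair thus went almost wholly to Hba-a1. Reads without a unique alignment stayed out of the gene counts. They made up 15.2% to 19.6% of all reads listed per wild-type library and 11.3% to 14.7% per knockout library. The part of the globin pair in them was not tested. These references were named together with the 6 genes, so the ratios that follow use the contrast that chose the genes and carry no test.

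Snx22 fell most against the references. Its reads per 1000 Alas2 reads were 45.4, 42.6, 47.7 and 44.3 in wild-type replicates 1 to 4, a tight band, and 30.2, 21.7 and 15.3 in knockout replicates 3 to 5. The groups did not overlap, and the mean log2 ratio was lower by 1.06, or 2.09-fold. Per Hba-a1 read it was 1.85-fold lower, again without overlap.

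Depdc1b came next, with 38.2, 53.8, 47.1 and 48.6 reads per 1000 Alas2 reads in wild type and 26.3, 27.5 and 21.9 in knockout. The groups did not overlap, and the ratio was 1.85-fold lower. Per 1000 Hba-a1 reads it was 0.710, 0.824, 0.789 and 0.917 in wild type and 0.539, 0.513 and 0.425 in knockout, or 1.65-fold lower.

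Tmcc2 had 698, 708, 624 and 557 reads per 1000 Alas2 reads in wild type and 350, 489 and 330 in knockout, which was 1.68-fold lower with no overlap. Most of the difference between wild-type libraries seen in CPM was absent from this ratio, in which wild-type replicates 1 and 2 were nearly equal. Per Hba-a1 read Tmcc2 was 1.49-fold lower, also with no overlap. Sowaha had 28.8, 20.96, 24.1 and 16.4 reads per 1000 Alas2 reads in wild type and 14.7, 16.1 and 11.9 in knockout, 1.56-fold lower. The Sowaha groups did not overlap, but wild-type replicate 4 and knockout replicate 4 were 16.4 and 16.1. Per 1000 Hba-a1 reads the lowest wild-type value was 0.310 and the highest knockout value 0.301, with a 1.39-fold lower ratio on average.

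Mir451 had 25.9, 13.5, 16.7 and 17.5 reads per 1000 Alas2 reads in wild type and 11.3, 9.56 and 10.1 in knockout, 1.73-fold lower without overlap. Per 1000 Hba-a1 reads the groups overlapped, since wild-type replicate 2 (0.206) lay below knockout replicate 3 (0.232), and the ratio was 1.54-fold lower on average. Col6a6 overlapped against both references. Its reads per 1000 Alas2 reads were 16.1, 55.7, 27.3 and 30.5 in wild type and 18.3, 24.4 and 11.4 in knockout, with wild-type replicate 1 below 2 of the 3 knockout libraries. Col6a6 was 1.71-fold lower per Alas2 read and 1.52-fold lower per Hba-a1 read on average, and the second value, -0.60 on the log2 scale, became -0.35 when wild-type replicate 2 was left out and -0.30 when knockout replicate 5 was.

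Knockout thus lay wholly below wild type for 4 of the 6 genes per Hba-a1 read and for 5 of the 6 per Alas2 read. Over all 16226 tested genes the shares were 0.0616% per Hba-a1 read and 0.0986% per Alas2 read. Nothing is read from that contrast, since genes with the steepest falls were chosen and few genes fell more than the references.

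**Figure D4:**
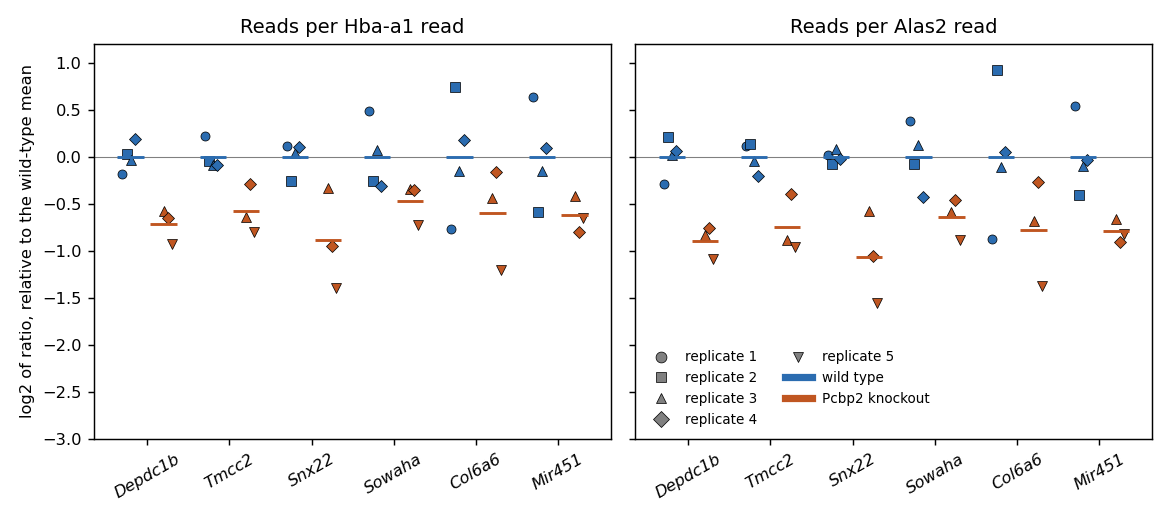
Log2 of reads per Hba-a1 read (left) and per Alas2 read (right) for the 6 genes, set relative to the wild-type mean, with 1 point per library and bars at group means. Col6a6 overlaps between groups in both panels and Mir451 in the Hba-a1 panel, and Snx22 has the lowest knockout mean in both.

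The genes also differed in how they varied among the wild-type libraries, which the choice of genes did not set directly. From high to low, Tmcc2, Snx22, Sowaha and Mir451 followed replicates 1, 3, 4, 2, the same order as Hba-a1 and Alas2. Of all tested genes 11.3% had that order, the most common of the 24 possible. Among genes of at least 5 CPM it was the order of 13.6%, and of 26.2% of those called lower. Depdc1b followed 3, 1, 4, 2, found in 5.13% of tested genes, with a range of only 1.34-fold. That order had shares of 6.06% among genes of at least 5 CPM and 9.84% among those called lower. Col6a6 followed 2, 3, 4, 1, found in 6.32% of tested genes. Its shares were 6.01% among genes of at least 5 CPM and 1.12% among those called lower.

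The summed level of a list of 9 stellate cell and fibroblast markers was likewise highest in wild-type replicate 2, at 4435 CPM, and lowest in replicate 1, at 3009 CPM. The sum of the other collagen VI chains was also highest and lowest in these libraries, at 551 and 329 CPM. Heart muscle markers had their extremes in the same libraries, at 123 and 67.3 CPM, as did the summed TMCC relatives of Tmcc2, at 40.4 and 38.9 CPM. With 4 libraries no correlation was computed, and the part of any of these cells in the Col6a6 values was not tested.

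**Figure D5:**
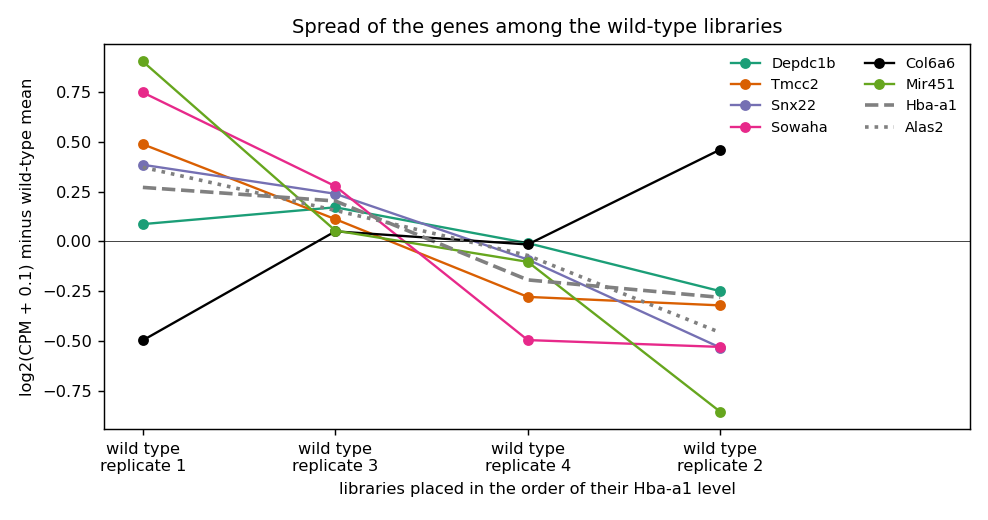
Level of the 6 genes, Hba-a1 and Alas2 in the 4 wild-type libraries, as log2(CPM + 0.1) minus the wild-type mean, with libraries placed in the order of their Hba-a1 level. Col6a6 runs against the other lines, from its lowest value in replicate 1 to its highest in replicate 2, and Depdc1b is the flattest line.

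Likeness of profiles was measured as the root mean square difference of centred log2 values over the 7 libraries, a measure that includes the fall itself. Among the 6, Tmcc2 and Sowaha were closest, at 0.21, followed by Depdc1b and Tmcc2 at 0.23, and Col6a6 and Mir451 were farthest apart, at 0.79. Among 10854 other named genes, the closest to Snx22 was Hbb-bs, an adult beta globin, at 0.22. The closest to Sowaha and to Mir451 was Fn3k, a kinase that repairs glycated proteins, at 0.31 and 0.35. Ube2l6, an enzyme of ISG15 conjugation, was closest to Tmcc2, at 0.36, and to Col6a6, at 0.58, and Gfap, an intermediate filament gene, was closest to Depdc1b, at 0.36. Hba-a1 was nearer than Alas2 to each of the 6 and was nearest to Sowaha, at 0.38, with Alas2 at 0.47.

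Genes of late red cell maturation were mostly lower. Of 20 genes 19 were tested, and edgeR called 12 lower and 0 higher, beside 3.43% and 1.59% of all tested genes. The median log2 fold change of the list was -1.02, beside 0.01 for all tested genes. Trim10, a red cell ubiquitin ligase, fell by 1.66 (edgeR adjusted p = 0.00378), Tspo2, a red cell membrane protein, by 1.46 (edgeR adjusted p = 0.00424) and Rhd, a blood group antigen, by 1.51 (edgeR adjusted p = 0.00434), on the log2 scale. The number called lower dropped to 5 when wild-type replicate 3 or knockout replicate 4 was left out and to 4 when knockout replicate 5 was. Summed levels of the list ran from 5721 to 11331 CPM in wild type and from 3015 to 4566 CPM in knockout. No gene of that list fell as far as the 6, which were chosen for steep falls. The adult beta globins Hbb-bt and Hbb-bs, not on that list, fell further than the 6, with log2 fold changes of -3.12 and -3.06.

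Of 10 erythroid transcription factors, edgeR called 3 lower and 0 higher, beside 3.43% and 1.59% of all tested genes. The median log2 fold change of the 10 was -0.54. Nfe2 fell by 1.32 (edgeR adjusted p = 0.00673), Klf1 by 0.81 (edgeR adjusted p = 0.0304) and Tal1 by 0.92 (edgeR adjusted p = 0.0467) on the log2 scale. Only 1 was called when any of wild-type replicates 1, 3 and 4 or of knockout replicates 4 and 5 was left out, and 6 when wild-type replicate 2 was, while DESeq2 on all libraries called 6. Gata1 had a log2 fold change of -0.67 (edgeR adjusted p = 0.0707). Of 8 early erythroid and progenitor genes edgeR called 0, with 2 lower and 2 higher at an unadjusted p under 0.05, 1 called lower by DESeq2 and 0 by limma-voom, and a median of -0.06. Epor, the erythropoietin receptor, had -0.62 (edgeR adjusted p = 0.0722), Myc 0.43 and Tfrc, the transferrin receptor, -0.91 (edgeR adjusted p = 0.130).

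Markers of other cells of the tissue moved as well. Beside the counts that follow, edgeR called 3.43% of all tested genes lower and 1.59% higher. Median log2 fold changes were -0.62 for macrophage, -0.83 for megakaryocyte, 0.61 for endothelial and -0.29 for stellate cell and fibroblast markers. Macrophage markers had 6 of 11 called lower, with summed levels of 331 to 371 CPM in wild type and 240 to 312 in knockout. Megakaryocyte markers had 5 of 7 called lower, with sums of 292 to 401 and 167 to 180 CPM, and endothelial markers had 3 of 6 called higher, with sums of 165 to 222 and 227 to 301 CPM. Stellate cell and fibroblast markers had 2 of 9 called lower, Lum and Lrat, with sums of 3009 to 4435 and 2743 to 3268 CPM. With knockout replicate 5 left out these 4 counts were 2, 2, 1 and 0, and with wild-type replicate 4 left out the first 2 were 3 and 3. The megakaryocyte count was also 2 when wild-type replicate 3 was dropped, 3 when knockout replicate 4 was and 3 with total-count scaling.

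Hepatoblast markers had 0 of 8 called by edgeR, with 1 at an unadjusted p under 0.05, 1 called by DESeq2 and 0 by limma-voom, and sums of 5200 to 11924 CPM in wild type and 6978 to 9261 in knockout. Mesothelial markers had 0 of 4 called, with 2 at an unadjusted p under 0.05, 1 called by DESeq2 and 0 by limma-voom, and sums of 232 to 328 and 198 to 284 CPM. Heart muscle markers had 2 of 5 called higher, Myh6 and Nppa, with sums of 67.3 to 123 CPM in wild type and 71.9 to 337 in knockout, the last in knockout replicate 3. limma-voom called neither gene. The part of these markers in the falls of the 6 genes was not tested. No marker set was at 0 in any library, and hepatoblast and erythroid genes were both abundant, as the labelled tissue requires.

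Because Pcbp2 binds C-rich RNA, the C content of the 3′ untranslated regions was counted for the 5 protein-coding genes of the set. Only the transcript with the longest coding sequence of each gene was used. C made up 26.5% of bases in Tmcc2, 25.9% in Snx22, 23.0% in Col6a6, 19.0% in Sowaha and 18.5% in Depdc1b, beside a median of 22.0% over 14319 genes. Runs of at least 4 C numbered 11 in Snx22, 7 in Col6a6, 6 in Tmcc2, 6 in Sowaha and 2 in Depdc1b, from 2.27 per kilobase in Depdc1b to 5.71 in Snx22, beside a median of 2.56. C content was thus above the median in Tmcc2, Snx22 and Col6a6 and below it in Sowaha and Depdc1b. C runs per kilobase were above the median in 4 of the 5 genes and below it in Depdc1b. The references have short regions, with 36.5% C in the 74 bases of Hba-a1 and 29.9% in the 147 bases of Alas2. Hba-a1 held 0 C runs and Alas2 held 1. Binding by Pcbp2 was not tested.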

How the data were processed

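The authors deposited raw read counts per gene for 7 libraries, made per the labels with a stranded TruSeq messenger RNA kit. The submitters' processing notes name cutadapt 1.4.2, TopHat2, HTSeq, DESeq and DESeq2 and the build mm10; not given in the sources used here are their settings and the annotation release. The authors' deposited table holds a baseline signal (mean normalized count), log2 fold changes with standard errors, a Wald score and p-values. It was used for names and for the members' log2 values. Reads in no gene were 4.89% to 5.94% of all reads listed in wild type and 6.75% to 7.61% in knockout and stayed out of library sizes. All per-sample columns were used.

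The counts went into edgeR 4.0.16 under R 4.3.3 (filterByExpr, TMM, quasi-likelihood test, group as the only term, Benjamini-Hochberg adjustment over 16226 genes). The SE of an edgeR log2 fold change is the absolute value of that change divided by the square root of the test's F statistic. The script was tested on simulated data. Coordinates are from GENCODE M21 and sequences from RefSeq tables for GRCm38.p6. Profiles used log2(CPM + 0.1) and genes of at least 5 CPM. Alternatives were other scalings and filters, DESeq2 1.42.0, limma-voom (limma 3.58.1), a replicate block and each library left out. Named were the 6 genes, the references, Pcbp1 and Pcbp2, neighbours, lists of up to 5 genes whole, the 3 smallest p-values of longer lists and the 3 nearest profiles. Ago2, Gata1, Hbb-bt and mmu-mir-6236 were named after their values were seen. Members and lists were chosen with earlier results of these data known.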

Additional observations from a re-analysis of the deposited data

Results flagged for a closer look

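Among 42 sets of wild-type values tested for a library that stands apart, 3 were marked, where chance marks about 1 in 20. Each value given is the gap of the extreme library to its nearest neighbour as a share of the whole range of the 4. Pcbp2 had a gap of 0.899 in wild type, with replicate 1 at 165 CPM and the others at 329 to 347 CPM. Tmcc2 reads per Hba-a1 read had a gap of 0.849, with replicate 1 at 13.0 and the others at 10.5 to 10.8 reads per 1000 Hba-a1 reads. Ppib, which overlaps Snx22, had a gap of 0.886, with replicate 4 at 369 CPM and the others at 313 to 319 CPM.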

How the results depend on the processing

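Under 15 alternatives all 6 genes kept their direction and moved by less than the spread between libraries. Their log2 fold changes ranged from -2.74 to -2.53 for Depdc1b, -2.66 to -2.36 for Tmcc2, -3.15 to -2.64 for Snx22, -2.67 to -2.20 for Sowaha, -2.68 to -2.33 for Col6a6 and -2.90 to -2.28 for Mir451. The 12 ratios to Hba-a1 and Alas2 kept their direction under 8 alternatives. The genes lower in knockout numbered 556 and the genes higher in knockout 258. DESeq2 called 1057 and 617, and a replicate block gave 1204 and 852. Leaving out each library in turn gave 116 to 753 lower and 24 to 418 higher. Total-count scaling gave 651 higher, moved the lower share of calls from 68.3% to 37.6% and shifted the median of all genes from 0.01 to 0.14. Replicate numbers 3 and 4 occur in both groups, but the labels do not say that they pair libraries. Over 11256 genes, deviations from group means correlated at 0.54 and 0.50 between libraries of the same number. Between libraries of different numbers the correlations ran from -0.57 to 0.31, lower than both. A shared litter or batch was not tested. Of 74 other named genes, 24 were called, 12 of these lost the call under some alternative, and 15 uncalled genes gained one. With the replicate block the uncalled neighbours Gm2822 (edgeR adjusted p = 0.0216) and Col6a5 (0.0420) were among those that gained one. The cause was not tested. With 4 and 3 libraries and 67 to 74 Mir451 reads in knockout, smaller differences are not resolved.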
